A study of Daphnia magna with 20 samples.

Results

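A set of 150 gene models of the water flea Daphnia magna was described, in which the signal was low in females just after the moult (F1) and high in females later in the same intermoult cycle (F2 and F3). The 150 were taken from 41316 gene models with probes on a custom single-colour Agilent array, of which 40786 had 3 or more probes. For each gene model the 7 stage values of the authors' normalized data were sorted, and the widest step between neighbouring values separated a high from a low set of stages. In 2376 gene models F2 and F3 lay in the high set and F1 in the low set, while early embryos, late embryos, juveniles and males could lie in either. In 2107 of these at least 2 probes were well above background in F2 and in F3, and the 150 with the widest step were kept. Members were thus chosen by the measured values of every stage, so the stage pattern below is a description. Only the difference between F3 and F2 was tested, whose direction the choice left free. The choice did limit its size, since both stages had to lie in the high set. Members also had to be well above background in both F2 and F3, while the gene models tested needed this in any stage. Shares over all tested are therefore given beside the members for scale only.

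The samples were 20 arrays of whole-body RNA from a single laboratory clone (Clone F), with no treatment of the animals sampled. E1 were embryos under 12 h old and E3 embryos 60 h old, taken shortly before release as juveniles. J were 4 day old juveniles of the fourth instar with no visible ovary. F1, F2 and F3 were females of the third clutch sampled early, midway and late in the intermoult cycle, 15, 16 and 18 days old in the sample labels and 14, 15 and 16 days old in the design text. Their embryos were flushed out of the brood pouch before collection. M were adult males labelled 16 days old, the offspring of mothers exposed to methyl farnesoate. Each stage had 3 arrays and M had 2. The study calls the arrays of a stage biological replicates. The number of animals in a sample and whether samples came from separate cultures were not given in the sources used here, so p-values measure only the spread between these arrays.

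Daphnia grow by shedding the cuticle, and an adult female repeats the same cycle with each clutch. The old cuticle is cast, newly laid eggs pass into the brood pouch, the new cuticle hardens and thickens, and the next cuticle is prepared before the next moult while the ovary provisions the following eggs. Crustacean moulting is driven by pulses of ecdysteroid hormone, and many arthropod genes of the epidermis are transcribed in waves within each cycle. The gene models are those of a transcriptome assembly and carry assembly identifiers. The table of gene names used here matched 0 of the 41316, so no gene name or function is given for any of the 150.

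Across the arrays, 17.3 to 80.8% of all gene probes were well above background, which is the scanner software's own mark. The 4 arrays of slide 1 (E1 replicate 2, E3 replicate 2, F1 replicate 3 and M replicate 1) lay between 17.3 and 25.4%, and every other array was above 47%. The 150 gene models held 591 probes, of which 96.8 to 97.3% were well above background on the F3 arrays and 97.5 to 97.6% on the F2 arrays. The choice itself required probes well above background in F2 and F3. On F1 replicates 1, 2 and 3 the share was 89.5, 77.2 and 32.8% of the members' probes. On the same arrays it was 80.8, 58.3 and 25.4% of all gene probes. In F1, 134 of the 150 had at least 2 probes well above background on at least 2 arrays, and 15 had all their probes well above background on all 3. Of the 591 probes, 193 were well above background on all 3 F1 arrays and 50 on none. The shares of all gene models and of all probes were not computed for these counts. Many F1 levels thus rest in part on signal not well above background, and the differences from F1 below depend on how background was corrected. Only 1 of the 591 probes was saturated, on 1 array.

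Values are given as centred log2 signal, which is the log2 of the quantile-normalized signal minus the median of that probe over the 20 arrays, with the median over the probes of a gene model. A value of 0 is thus the median array and not the middle of the range. With the 9 arrays of E1, J and F1 low in many members, 0 lies near the lower edge of the high stages. A step of 1 is a doubling. The step that chose the members was 6.91 log2 units, or 120-fold, in the widest case, with a median of 3.66 log2 units, or 12.7-fold. The last members, ranks 149 and 150, had steps of 2.96 and 2.96 log2 units, and the first gene models outside, ranks 151 and 152, had 2.94 and 2.94, so the border of the set falls in a continuous range.

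The level of the set was lowest in E1 and F1, intermediate in J, and high in E3, F2, F3 and M. Its median over the 150 gene models was -6.18, -5.21 and -3.44 on the 3 E1 arrays, 1.69, 1.22 and 1.47 on the E3 arrays, and -1.87, -3.05 and -3.49 on the J arrays. It was -5.13, -4.49 and -4.66 on the F1 arrays, 0.38, 0.70 and 0.44 on the F2 arrays, 0.32, 1.36 and 1.01 on the F3 arrays, and 1.46 and 1.02 on the M arrays. No array of E1, J or F1 reached any array of the other 4 stages. In whole-body RNA, a lower signal per cell and fewer cells of the tissue that uses a gene cannot be told apart. Within the low stages, the F1 medians lay inside the range of the E1 medians, while every J array was above every F1 array. Within the high stages the ranges of E3, F3 and M overlapped, and F2 overlapped with F3.

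**Figure D1:**
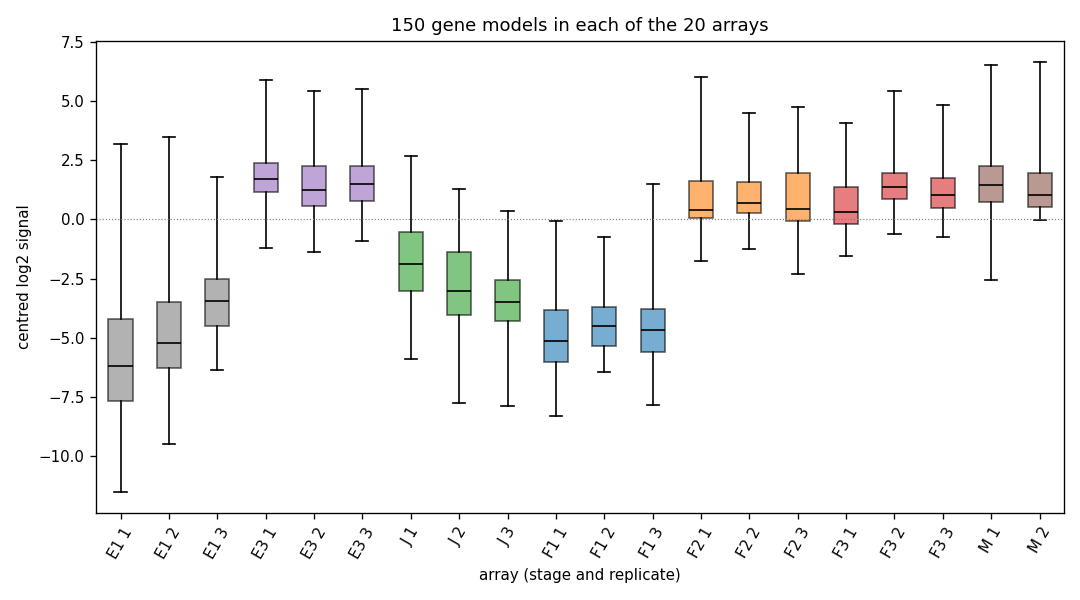
Centred log2 signal of the 150 gene models (vertical axis) in each of the 20 arrays (horizontal axis, by stage and replicate). Boxes hold the middle 50% of gene models with the median as a line, and whiskers reach the lowest and highest gene model. The F2 and F3 medians lie between 0.32 and 1.36 and the F1 medians between -5.13 and -4.49.

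The difference between later females and F1 females was large in every member. F2 exceeded F1 by 3.00 to 8.41 log2 units with a median of 5.74, which is 53.3-fold, while the median over all 31245 gene models tested was 0.05. F3 exceeded F1 by 2.89 to 8.50 log2 units with a median of 5.66, which is 50.7-fold, while the median over all tested was 0.15. In 149 of the 150 all F2 and F3 arrays lay above all F1 arrays, which held for 12.3% of all gene models tested. In the limma fit 148 passed an adjusted p of 0.05 with at least 1.5-fold higher signal in F2 than in F1, where 3.65% of all tested did, and 149 did so in F3 against F1, where 6.39% did. No member was called lower in F2 or in F3 than in F1, where 2.62% and 6.87% of all tested were. These counts follow from how the members were chosen. With normexp background correction, which models the background in place of the scanner software's correction, the medians were 4.50 log2 units or 22.6-fold for F2 and 4.57 or 23.8-fold for F3, each against F1.

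Between arrays of the same slide the step is a description too, since these arrays also chose the members. On slide 3 the single F2 array exceeded the single F1 array by a median of 5.65 log2 units, and on slide 4 by 5.82, with all 150 gene models higher in F2 on both slides. On slide 4 the F3 array exceeded the F1 array by a median of 6.01 log2 units, again with all 150 higher. The median over all gene models tested lay between -0.05 and 0.12 log2 units in these 3 comparisons. The dimmest F1 array, replicate 3 on slide 1, had a set median of -4.66, between those of the other F1 arrays.

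The probes of a member mostly showed the same step. Of the 591 probes, 576 were lower in F1 than in F2 and in F3, and 563 were at least 2-fold lower than in both. In 136 of the 150 gene models every probe was lower in F1. The size of the step varied more than its direction, since F2 minus F1 differed by a median of 1.99 log2 units between the lowest and highest probe of a gene model and by up to 9.44. By their assembly identifiers the 150 gene models came from 147 loci. Of these, 3 loci contributed 2 members each, which may share sequence and are not separate observations. Whether members with different locus identifiers also share sequence was not tested.

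The rule fixed the place of F1, F2 and F3 and let the other stages lie in either set. Their values also entered the step by which the members were kept, so the combinations are a description. E3 was in the high set for 148 of the 150, M for 147 and both for 145, or 96.7%. Both were high in 43.1% of the other 1957 gene models that met the pattern and the detection limit with a narrower step. J was in the high set for 63 and E1 for 13. The most frequent combinations were E3, F2, F3 and M with 72 members, and the same stages with J with 60 members. A further 10 had E1, E3, F2, F3 and M high, 3 had all stages but F1 high, 3 had E3, F2 and F3, and 2 had F2, F3 and M. Hence F1 was the only low stage in 3 of the 150, and in no member were F2 and F3 the only high stages.

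The stage with the highest value was E3 in 60 members, M in 49, F2 in 31, F3 in 8 and E1 in 2. The stage with the lowest value was E1 in 87, F1 in 48 and J in 15. F1 was lower than J in 122 members and higher in 28. The heat map of the members by array shows these blocks.

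**Figure D2:**
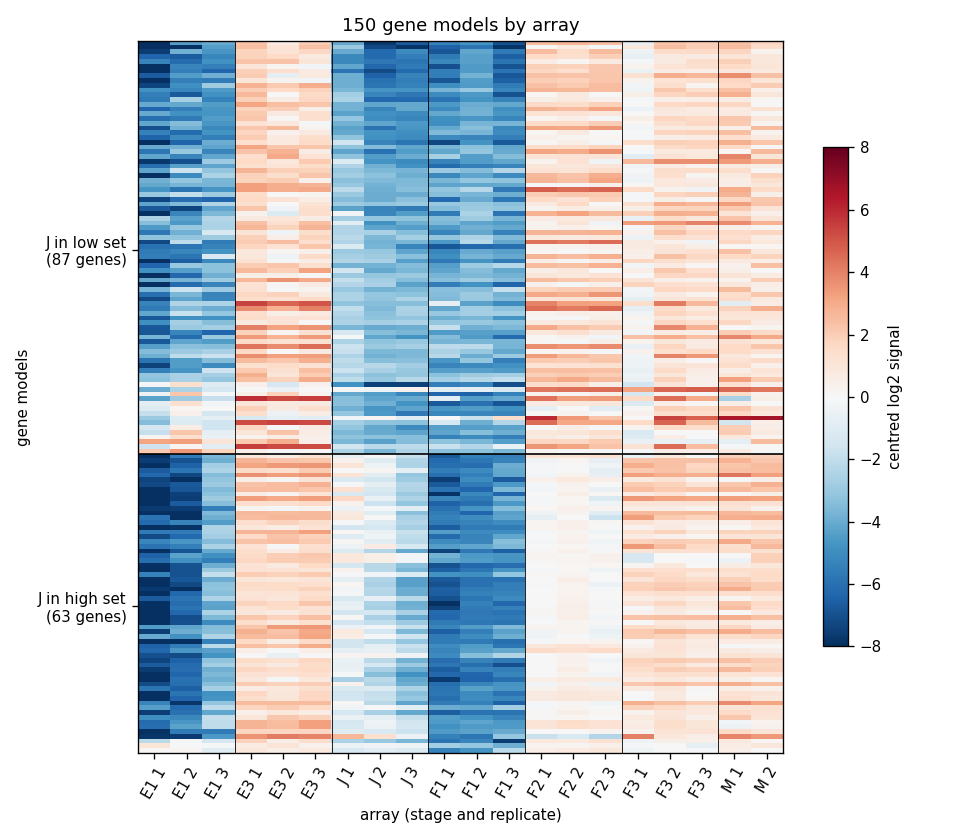
Centred log2 signal (colour, red high and blue low, cut at 8 and -8) of the 150 gene models (rows) in the 20 arrays (columns, by stage and replicate). The 87 gene models with J in the low set are above the black line and the 63 with J in the high set are below it. F1 is blue in both blocks, and J is blue above the line and pale below it.

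As examples, 4 gene models were taken by a rule, namely the pair with the widest step among members higher in F3 than in F2 and the pair with the widest step among members lower in F3. All 4 had E3, F2, F3 and M in the high set and E1, J and F1 in the low set. Their stage values are chosen extremes of the set.

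Gene model dmag2vel4f4xincok59Loc5035t22 had the widest step of all and was represented by 3 probes. Its centred log2 signal was 2.49, 2.64 and 2.34 on the F2 arrays and -0.68, 2.20 and 1.97 on the F3 arrays, against -5.40, -4.76 and -6.98 on the F1 arrays. F2 arrays were thus nearly equal, and F3 replicate 1 was well below the other F3 arrays while staying far above F1. It had 2.25, 0.68 and 1.98 on the E3 arrays and 2.39 and 1.67 on the M arrays, which overlapped with the F3 arrays. It had -10.07, -4.43 and -4.02 on the E1 arrays and -4.02, -7.74 and -6.68 on the J arrays, which overlapped with F1. Before centring, its normalized log2 signal averaged 16.1 ± 0.15 in F2 and 14.8 ± 1.66 in F3, against 7.89 ± 1.14 in F1 (SD, n = 3 each).

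Gene model velb9ptf111k47Loc1t2, at rank 2 of the step and with 4 probes, had a higher mean in F3 than in F2. Its centred log2 signal was 0.91, 2.45 and 1.97 on the F3 arrays and 0.11, 0.77 and -0.11 on the F2 arrays, so that the F3 and F2 ranges did not overlap. On the F1 arrays it was -6.47, -5.85 and -7.84. The J arrays were at -2.99, -7.23 and -7.86, with replicate 1 far above the other J arrays. The E1 arrays were at -9.44, -8.43 and -4.43, with replicate 3 the highest. The E3 arrays had 2.43, 1.14 and 2.34 and the M arrays 2.46 and 1.56, close to the F3 arrays.

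Gene model velb9ptr011k47Loc25t6, at rank 3, had 2.46, 1.47 and 2.54 on the F2 arrays and -0.38, 1.49 and 1.54 on the F3 arrays, against -6.85, -4.17 and -5.67 on the F1 arrays. As in the first example, F3 replicate 1 was the lowest of the F3 arrays. It had 1.77, 1.08 and 1.63 on the E3 arrays and 1.74 and 0.29 on the M arrays. Of its 4 probes, 3 were higher in F2 than in F1 by 7.78 to 8.40 log2 units and the other by 2.09. The probes with 8.40 and 2.09 were well above background on only 1 of the 3 F1 arrays, so the size of their difference is uncertain.

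Gene model velh8ptr011k97Loc20t1, at rank 6, was the most even of the 4. Its centred log2 signal was 0.57, 0.13 and 0.81 on the F2 arrays and -0.13, 0.73 and 1.40 on the F3 arrays, against -5.13, -4.37 and -5.85 on the F1 arrays. The J arrays at -5.15, -5.75 and -5.84 and the E1 arrays at -5.32, -6.13 and -4.86 lay in or beside the F1 range. All of its 4 probes were higher in F2 than in F1, by 4.66 to 6.55 log2 units.

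**Figure D3:**
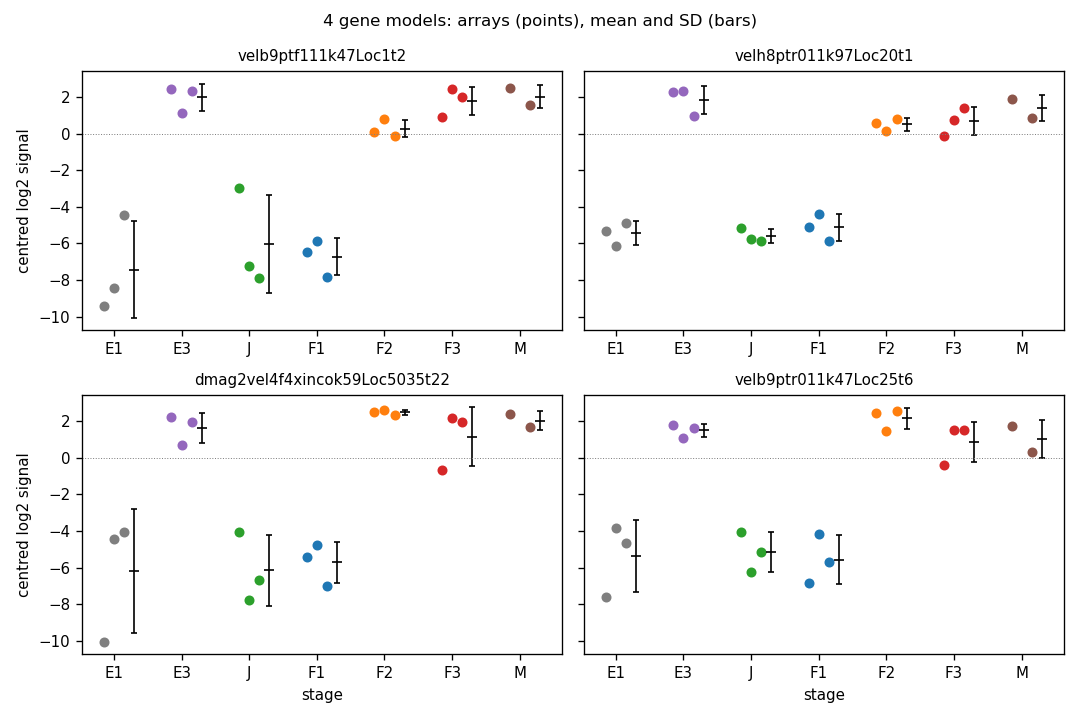
Centred log2 signal (vertical axis) of the 4 example gene models in the 7 stages (horizontal axis). Points are arrays in order of replicate, with the mean and SD beside them (3 arrays, 2 for M). E1, J and F1 lie at or below -2.99 in all 4, and the other stages at or above -0.68.

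None of the 4 passed between F3 and F2 in the limma fit of all arrays. F3 minus F2 was 1.52 ± 1.17 log2 units (SE, adjusted p = 0.645) for velb9ptf111k47Loc1t2 and 0.16 ± 0.48 (SE, adjusted p = 0.935) for velh8ptr011k97Loc20t1. It was -1.33 ± 1.28 (SE, adjusted p = 0.737) for dmag2vel4f4xincok59Loc5035t22 and -1.27 ± 0.87 (SE, adjusted p = 0.583) for velb9ptr011k47Loc25t6. In the limma fit of the F2 and F3 arrays alone, velb9ptf111k47Loc1t2 passed with an adjusted p = 0.0442. The difference of velh8ptr011k97Loc20t1 turned to -0.02 without F2 replicate 2 and to -0.20 without F3 replicate 3. Without F3 replicate 1, that of dmag2vel4f4xincok59Loc5035t22 was -0.40 and that of velb9ptr011k47Loc25t6 was -0.64.

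Between F3 and F2 the set as a whole had no common direction. F3 was higher in 79 members, or 52.7%, and lower in 71, while it was higher in 62.6% of all gene models tested. F3 minus F2 ran from -4.17 to 3.65 log2 units with a median of 0.12, against 0.13 over all gene models tested. The median was 0.41 without F3 replicate 1, -0.04 without F3 replicate 2 and 0.31 with the slide as a block. In the limma fit of all 20 arrays, 3 members were higher in F3, by 1.75 to 3.29 log2 units, with adjusted p between 0.0147 and 0.0439. This was 3 of 150 where 0.765% of all tested passed. In the same fit 12 members were lower in F3, by -1.63 to -4.17 log2 units, with adjusted p between 0.000633 and 0.0496, where 4.25% of all tested passed. In all 15 the F3 and F2 arrays did not overlap. With an array left out, 0 to 15 members were called higher (0 without F2 replicate 1 or 3, 15 without E1 replicate 3) and 6 to 15 lower (6 without F3 replicate 1). Of all 31245 tested, 100 and 110 were higher without F2 replicates 1 and 3, 296 were higher without E1 replicate 3, and 1221 were lower without F3 replicate 1. With the slide as a block 1 member was called higher and 10 lower, where 305 and 1371 of all 31245 tested were.

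The fit of the F2 and F3 arrays alone called more members. In it 43 of the 150 were higher in F3, where 6.25% of all tested were, and 25 were lower, where 8.38% were. These included the 3 and the 12 called in the fit of all arrays. The fits differ in the spread they use, and the spread of the members was uneven between stages. The median SD between arrays was 0.51 in F3 and 0.21 in F2, but 1.59 in E1 and 0.80 in J. All F3 arrays lay above all F2 arrays in 49 members, where 30% of all tested did, and below them in 42, where 15.5% did. Within slide 4 the median F3 minus F2 was 0.31 log2 units and within slide 5 it was 0.14, with 87 and 76 members higher in F3.

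Members with juveniles in the high and in the low set are described apart, as the rule itself placed them. Of the 63 members with J in the high set, 50 were higher in F3, with a median F3 minus F2 of 1.13 log2 units. Of the 87 members with J in the low set, 29 were higher in F3 and 58 lower, with a median of -0.58. The place of J depends on how near it lay to the lowest high stage, so a low F2 value itself draws J into the high set. The 2 counts are therefore not independent of F3 minus F2, and nothing is read from their difference.

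The levels of the 2 kinds are a description, since the split itself favours a low F2 in the J-high members. Their medians lay further apart on the F2 arrays than on F3 replicates 2 and 3. The median of the J-high members was 0.02, 0.31 and -0.03 on the F2 arrays, and that of the J-low members 1.40, 1.31 and 1.45. On the F3 arrays the J-high members had 1.09, 1.28 and 0.90 and the J-low members -0.07, 1.38 and 1.20. On F3 replicates 2 and 3 the kinds were thus close to each other, and on replicate 1 the J-low members were far lower. F1 medians also differed, at -5.92, -5.37 and -4.96 for the J-high members and -4.25, -3.87 and -4.33 for the J-low members. In E3 and M the kinds lay within 0.48 log2 units of each other on every array.

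**Figure D4:**
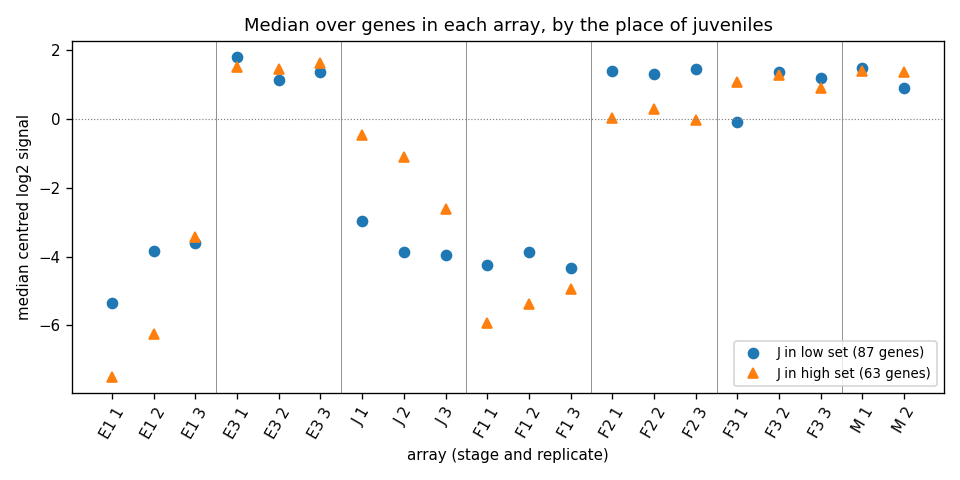
Median centred log2 signal (vertical axis) in each of the 20 arrays (horizontal axis), for the 87 members with J in the low set (circles) and the 63 with J in the high set (triangles). The circles are higher than the triangles on all F2 arrays, which the split itself favours. On F3 replicate 1 the circles drop to -0.07 while the triangles stay at 1.09.

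F3 replicate 1 stood apart from the other F3 arrays. It was the lowest F3 array in 80 of the 87 J-low members and in 26 of the 63 J-high members. Its value minus the mean of the other F3 arrays had a median of -1.29 log2 units over all 87 and -0.09 over all 63. Over all gene models tested it correlated with the other F3 arrays at 0.693 and 0.614, while those correlated with each other at 0.891, so that it also differed outside the members. On this array 59.0% of all probes and 96.8% of the members' probes were well above background. What its difference had to do with the members was not tested. How often it was the lowest F3 array over all gene models tested was not computed.

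Without F3 replicate 1, the median F3 minus F2 of the J-low members was -0.03 in place of -0.58, with 43 of 87 higher in F3 in place of 29. The median of the J-low members thus depended on this array. In 35 J-low members all F3 arrays lay below all F2 arrays, where 15.5% of all tested did. In 12 they lay above all F2 arrays, where 30% of all tested did. Without replicate 1 these numbers were 35 and 33. Non-overlap is easier to reach with fewer arrays, and its share over all tested was not computed without replicate 1. Nothing is therefore read from the change in these numbers. Nor is anything read from their distance to the shares above, since the split used the same stage values. The J-high members had a median of 1.04 without it, with 50 of 63 higher in F3.

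Outside E3 and M, arrays of the same stage differed in these gene models more than in others. Between J arrays the median SD of the members was 0.80 log2 units, against 0.18 over all gene models tested, a ratio of 4.40. The ratio was 3.08 in E1, 2.33 in F3, 2.01 in F1 and 1.57 in F2, but 0.99 in E3 and 0.97 in M. Members were chosen for a wide range over stages, and the part of this choice in their spread was not tested. In E3 and M the median SD of the members was 0.40 and 0.42, against 0.40 and 0.43 over all gene models tested. In F2 it was 0.21 against 0.14. The ratios near 1 in E3 and M thus do not mean a smaller spread of the members than in F2.

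J replicate 1 was the highest J array in 123 of the 150 and replicate 3 the lowest in 101. The order of replicates 1, 2 and 3 from highest to lowest held in 82. It held in 38 of the 87 J-low and 44 of the 63 J-high members. The share over all gene models tested was not computed. Replicate 1 minus replicate 3 had a median of 1.26 log2 units over the 150. In the J-high members this difference was 1.92, and their medians were -0.46, -1.10 and -2.61 on the 3 J arrays. In the J-low members it was 0.81, with medians of -2.97, -3.87 and -3.97. J replicates 1 and 3 were on the same slide, and the share of all probes well above background was 55.8% and 53.2% in them.

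Early embryos had the widest spread in log2 units, although J had the higher ratio to other gene models. E1 replicate 1 was the lowest E1 array in 116 of the 150, and replicate 3 the highest in 99. The shares over all gene models tested were not computed. The 137 members with E1 in the low set had medians of -6.40, -5.44 and -3.57 on the 3 E1 arrays. The 13 members with E1 in the high set had -0.41, 1.27 and -0.57, at about the level of their high stages. Among these 13 the medians were -3.20, -4.05 and -4.21 on the J arrays, -5.19, -4.70 and -4.83 on the F1 arrays, and 0.53, 0.51 and 0.52 on the F2 arrays. J and F1 were the low stages in 10 of the 13, and F1 alone in the other 3. On E1 replicate 2, from slide 1, 17.9% of the members' probes were well above background, and how far background shaped the low E1 values was not tested.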

How the data were processed

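RNA of 20 whole-body samples was hybridised to single-colour arrays of 4 per slide. The authors deposited scanner output (spot intensity, Feature Extraction 10.5.1.1, processed signal corrected for background) and a matrix of log2 values, quantile normalized and centred on each probe's median over all arrays. The matrix chose the members. Tests used log2 processed signal without outlier spots, quantile normalized and centred, which correlated with the matrix at 0.99973 or more. Gene models with 2 probes well above background in 2 arrays of a stage were tested (31245, including all 150 members) with limma 3.58.1 in R 4.3.3 (lmFit, eBayes, 7 groups, Benjamini-Hochberg over all tested). Tables and figures were made in Python 3.11.15 (numpy 2.4.6, pandas 2.3.3, matplotlib 3.10.9). The selection and the fit were checked on simulated data. The members, examples and lists were chosen with earlier results of these data known.

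The example gene models were the 2 members with the widest step among those higher in F3 than in F2 and the 2 among those lower. Lists of pathway genes and of markers could not be applied, since no table annotated the gene models, and no probe sequence was used. Alternatives changed the source of the values, normalization, background correction, filters, blocks, test and arrays. No pairing by replicate number was seen, and the samples were treated as unpaired. The methods state 3 replicates, and 2 male arrays were analysed here. The number of arrays limits the precision.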

Additional observations from a re-analysis of the deposited data

How the results depend on the processing

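The stage pattern was kept by 140 to 150 of the 150 gene models under 6 other settings and by 146 to 150 when each array was left out. Fewer stayed among the 150 with the widest step, from 117 with normexp to 150 under these settings. This number was 133 with the percentile shift, 134 with the mean over probes or without slide 1, and 135 to 149 with an array left out. Gene models meeting the pattern and the detection limit numbered 729 with the percentile shift, against 2107. The median F2 minus F1 was 5.31 with a 75th percentile shift, 4.50 with normexp background correction and 5.32 with the mean over probes, against 5.74, and 5.57 to 5.77 with an array left out. The median F3 minus F1 was 4.57 with normexp, against 5.66, and 5.47 to 5.99 with an array left out. These medians stayed above 0 under all settings run. The percentile shift also moved the median of all gene models to -0.34 in F2 minus F1 and -0.29 in F3 minus F1, against 0.05 and 0.15. With the slide as a block the medians were 5.76 and 5.86.

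Counts between F3 and F2 depended on the fit. Numbers in brackets are the counts over all gene models tested. Members higher in F3 were 3 (239) in the fit of all arrays. They were 6 from the deposited matrix (255), with the mean over probes (239) or with outlier spots kept (257). They were 14 (272) with normexp and 7 (267 of 26992) with the stricter filter on dim genes. With F2 and F3 arrays alone they were 43 (1952), with the slide as a block 1 (305) and with the scan date as a block 9 (539). They were 11 (1675) without slide 1, a setting chosen after seeing the data. Members higher in F3 were 16 (274) by the methods' t-test unadjusted and 25 (879) after Benjamini-Hochberg. Members lower in F3 were 12 (1329) in the fit of all arrays, 6 (982) with the percentile shift and 25 (2617) with F2 and F3 arrays alone. By the unadjusted methods' t-test 2 (562) were lower. With an array left out, 0 to 15 were higher and 6 to 15 lower. Without E1 replicate 3, 15 (296) were higher, and without F2 replicate 1 (100) or 3 (110) the count was 0. Without F3 replicate 1, 6 (1221) were lower, and without F3 replicate 2, 9 (1011). Without any other F2 or F3 array 7 or 8 (953 to 1043) were lower. Samples with the same number in F2 and F3 had correlations of -0.14, -0.20 and 0.09, so no pairing by number was seen. These few values cannot show whether samples shared a culture. A replicate block gave 1 (195) higher and 12 (1260) lower. F3 minus F2 of velh8ptr011k97Loc20t1 was -0.02 without F2 replicate 2 and -0.20 without F3 replicate 3, and ran from -0.20 to 0.56 with an array left out. Its adjusted p was at least 0.706 under all settings run, and the other examples kept their sign under all of them.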

Other observations

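The other 1957 gene models that met the stage pattern and the detection limit but had a narrower step were spread more widely over the stages. In the 150 members E3 was in the high set in 98.7%, M in 98.0% and both in 96.7%, against 56.9%, 53.9% and 43.1% of these 1957. E1 was in the high set of 8.67% of the members and 43.9% of the 1957, and J in that of 42.0% of the members and 44.9% of the 1957. F2 and F3 were the only high stages in none of the 150 and in 347 of the 1957, or 17.7%. These shares are a description, since the width of the step that divides the groups was computed from the same stage values.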
